A study of Citrus maxima and Citrus sinensis with 4 samples.

Results

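Of the 699 miRNA loci listed for leaves of 2 *Citrus* species, 387 carried the name of a known plant miRNA, and 42 of these had a mature sequence of 22, 23 or 25 nt and a label outside the large conserved families. The 42 loci were chosen by label and length alone: all labelled loci of these 3 lengths were taken except those of 29 excluded families such as miR156, miR165 to miR168 and miR395 to miR399. They comprised 19 loci of 22 nt, 13 of 23 nt and 10 of 25 nt, with 39 distinct sequences under 38 distinct labels. Small RNA of mature leaves was sequenced from *C. grandis* (sour pummelo, labelled *Citrus maxima*) and *C. sinensis* (the sweet orange 'Xuegan'), whose seedlings received boric acid at 10 μM (control) or at 400 μM (B-toxic) over 15 weeks. There was 1 library per condition, 4 in all, each made from the mixed RNA of replicate plants. Comparisons of B treatments here are therefore between libraries and have no replicate check in the sequencing. The study also measured selected miRNAs, miR2948 and miR2622.2 among them, by stem-loop qRT-PCR in biological replicates. Those measurements are not used here. The values hold miRNA loci only, so the identity of the tissue could not be checked against leaf marker genes.

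Most plant miRNAs are cut from a hairpin by Dicer-like 1 as duplexes of 21 nt. A 22 nt miRNA, often made from a hairpin with an unpaired base on 1 arm of the duplex, can on binding its target recruit an RNA-dependent RNA polymerase, so that the cut target is turned into secondary, often phased siRNAs. The miR482 family, a relative of miR2118, is the best known case: it pairs with the mRNA of a conserved motif of NBS-LRR disease resistance genes and triggers secondary siRNAs from them. Sequences of 23 to 25 nt fall in the size range made by other Dicer-like enzymes, among them the 24 nt siRNAs that direct DNA methylation, and a homology label on such a sequence says little about how it is made.

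The mature sequences with the most reads are shown first, since the results below turn on them. They are written 5′ to 3′ with the seed, bases 2 to 8, in capitals, as the deposited table gives them.
ptc-miR6468-5p (scaffold_2_326536, 22 nt): uUUUUCCCacaccucccauccc
csi-miR482c (scaffold_2_326638, 22 nt): uUCCCUAGucccccuauuccua
csi-miR482b (scaffold_2_326618, 22 nt): uCUUGCCCaccccucccauucc
ptc-miR473a-5p (scaffold_3_485521, 22 nt): aCUCUCCCucaagggcuucuga
smo-miR1098 (scaffold_3_525479 and scaffold_3_525485, 25 nt): uGAUGACGuggcgcaauccugagcg
aly-miR3433-5p (scaffold_6_1045148, 25 nt): uGUCAUUUgauauauuguuguguag
The prefix of a label names the plant whose miRNA was matched: csi for *C. sinensis* itself, ptc for poplar, aly for *Arabidopsis lyrata* and smo for the spikemoss *Selaginella moellendorffii*. The 39 distinct sequences had 38 distinct seeds. The 2 sequences with a common seed both carried the label ghr-miR2948-5p, from cotton.

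Among sequences that shared a label, the seed was mostly kept while the rest could differ. The study describes its conserved miRNAs as perfect matches to known miRNAs of miRBase, and how each label was assigned was not tested here. Across the whole table, 37 labels were carried by more than 1 distinct sequence, and at 36 of them all sequences shared bases 2 to 8, while identity after base 8 had a median of 53.8% and ran from 12.5% to 97.4%. Of the labels discussed here, 5 were carried by several sequences, and all 5 shared the seed. Identity after base 8 was 84.6% for ptc-miR473a-5p, but 43.5% for mtr-miR7699-5p, 33.8% for mtr-miR2622, 28.3% for mtr-miR2089-3p and 20.0% for ghr-miR2948-5p. A label from a distant plant, such as a moss or a spikemoss, was found at 7 of the 42 loci. The function known for the labelled miRNA in its own plant cannot be carried over to these loci from the label alone.

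The 42 loci held 20713 reads over the 4 libraries, with a median of 8.5 reads per locus against 38 over all 699 loci. They made up 1.65% (control) and 2.06% (B-toxic) of the mature miRNA reads of *C. grandis*, and 1.40% and 1.23% of those of *C. sinensis*. The library totals ranged from 243277 to 373890 mature reads, so that a count of 0 allowed up to 8.02 to 12.3 RPM (reads of a locus per 1000000 mature reads of its library). The 22 nt loci held 81.0% of the reads of the 42 loci, the 25 nt loci 17.6% and the 23 nt loci 1.42%. The 3 most abundant loci held 74.7% and the 7 most abundant 97.0%. Below, 4 counts in a row stand for *C. grandis* control, *C. grandis* B-toxic, *C. sinensis* control and *C. sinensis* B-toxic, and RPM follow the same order. The sums count the reads of smo-miR1098 at both of its loci, which had the same sequence and the same counts.

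**Figure D1:**
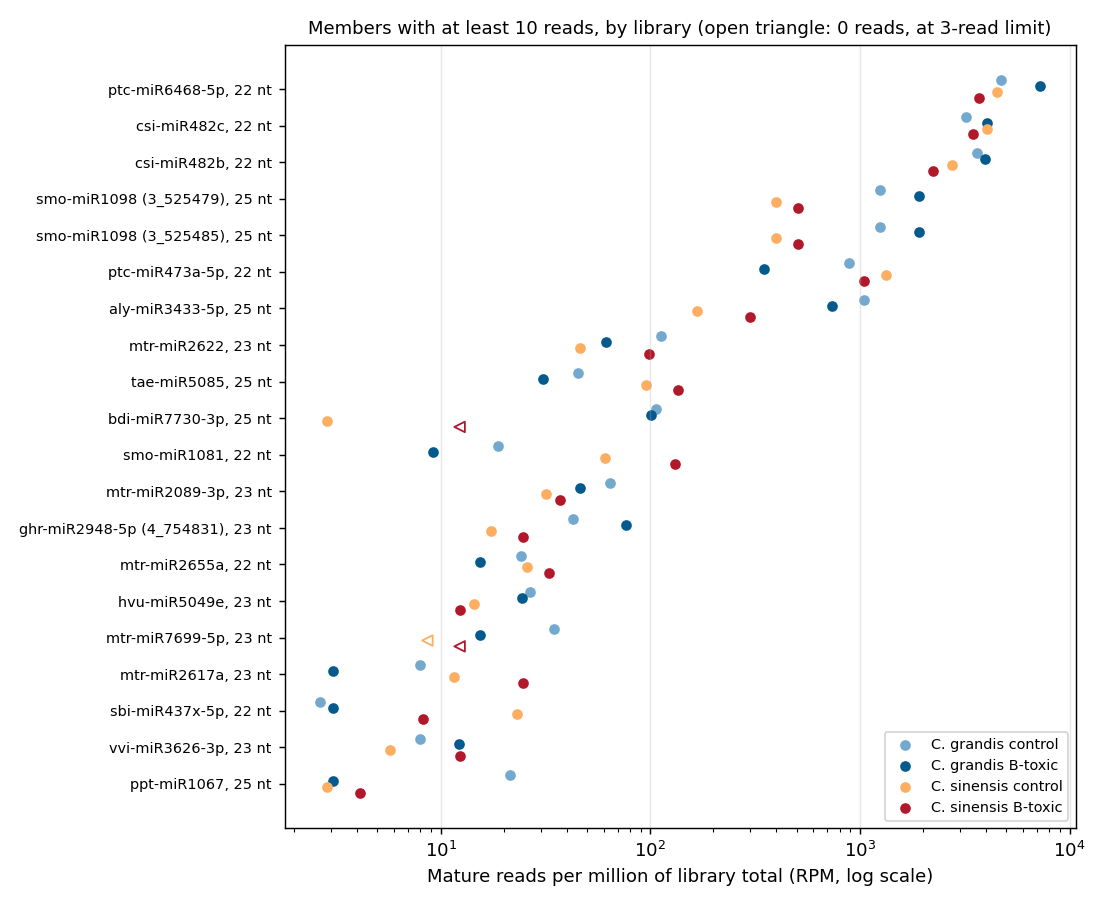
RPM of mature reads (x axis, log scale) in each of the 4 libraries for the 20 loci with at least 10 reads, with 1 point per library and no error bar because there was 1 library per condition. Levels ran from under 10 RPM to 7209 RPM, and the 4 points of csi-miR482b, csi-miR482c and ptc-miR6468-5p lay close together while those of bdi-miR7730-3p were split by species.

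The csi-miR482 loci and the locus most like them came first. csi-miR482b had 1350, 1291, 950 and 546 reads (3611, 3967, 2741 and 2244 RPM). csi-miR482c had 1195, 1320, 1396 and 839 reads (3196, 4056, 4028 and 3449 RPM). Both were abundant in all 4 libraries, with the B-toxic library above the control in *C. grandis* and below it in *C. sinensis*.

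The most abundant of the 42 loci, labelled ptc-miR6468-5p after a poplar miRNA, was the closest to csi-miR482b in sequence. Counted from the 5′ end of csi-miR482b, the sequences were identical at 18 of 22 bases and differed by C2U, G5U, C11A and U20C, of which C2U and G5U lie in the seed. csi-miR482c was less close: bases 3 to 22 of csi-miR482b aligned with bases 1 to 20 of csi-miR482c, with 14 of 20 identical. The next best match in the set, mtr-miR2655a, was identical to csi-miR482b at 9 of 22 bases and to csi-miR482c at 11 of 21. The ptc-miR6468-5p locus had 1766, 2346, 1568 and 903 reads (4723, 7209, 4524 and 3712 RPM). The B-toxic *C. grandis* library stood above the other 3, which lay within 3712 to 4723 RPM.

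All 3 loci had the mature sequence on the 3′ side of the precursor and carried identifiers of the same scaffold. The label ptc-miR6468-5p names a 5′ side, which these reads did not come from. Their hairpins, folded with RNAfold, had minimum free energies of -52.6 kcal/mol for the ptc-miR6468-5p locus, -42.6 for csi-miR482c and -38.6 for csi-miR482b, against a median of -30.1 over all loci. In the predicted duplex with 2 nt 3′ overhangs, the opposite strand was 21 nt at both csi-miR482 loci and 22 nt at the ptc-miR6468-5p locus, so only the former had the uneven 22 and 21 nt duplex. The opposite strands read as follows, 5′ to 3′.
opposite strand of csi-miR482b: aaugggaggcuuggcaagaag
opposite strand of csi-miR482c: ggaauugggugcuagggaagg
opposite strand of ptc-miR6468-5p: gaugggugaguugggaaaauaa

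In *C. grandis*, ptc-miR6468-5p had a log2 ratio of B-toxic over control of 0.61 (exact 95% interval 0.52 to 0.70), csi-miR482c of 0.34 (0.23 to 0.46) and csi-miR482b of 0.14 (0.02 to 0.25). In *C. sinensis*, the log2 ratios were -0.29 (-0.41 to -0.17), -0.22 (-0.35 to -0.10) and -0.29 (-0.44 to -0.14) in the same order. None reached the 2-fold limit that a call required. The ratios nevertheless differed between the species at all 3 loci when their equality was put to an exact conditional test. With adjustment for 579 loci, those read in either treatment of each species and of which 13.3% were called, the FDR was 2.60e-31 for ptc-miR6468-5p, 5.03e-10 for csi-miR482c and 0.000111 for csi-miR482b. These tests and intervals cover counting error only, and fewer cells of a type cannot be told apart from less RNA per cell in whole leaves. With a coefficient of variation of 0.2 between libraries assumed, no B effect of the 3 loci was past the FDR in either species. For ptc-miR6468-5p in *C. grandis* the FDR was then 0.763 by edgeR's exact test. The difference of the ratios was not tested under that assumption. The directions held when the libraries were scaled to clean reads, by TMM factors or by DESeq2's size factors, which moved every log2 ratio, and thus the median of all loci, by 0.25, -0.0048 and 0.15 in *C. grandis* and by -0.06, -0.15 and -0.16 in *C. sinensis*.

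An unlabelled 22 nt locus outside the set, named here after its values were seen, shared this sequence type and pattern at a higher level (scaffold_2_326556: uCUUACCUaugccacccauucc). It was identical to csi-miR482b at 17 of 22 bases, with G5A, C8U, C10U, C11G and U14A. It had 7199, 9235, 6772 and 4382 reads, with a log2 ratio of 0.56 (0.51 to 0.60) in *C. grandis* and -0.12 (-0.17 to -0.06) in *C. sinensis*. The ratios differed between the species (FDR 1.22e-77 by the exact conditional test). Its opposite strand was 21 nt.

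**Figure D2:**
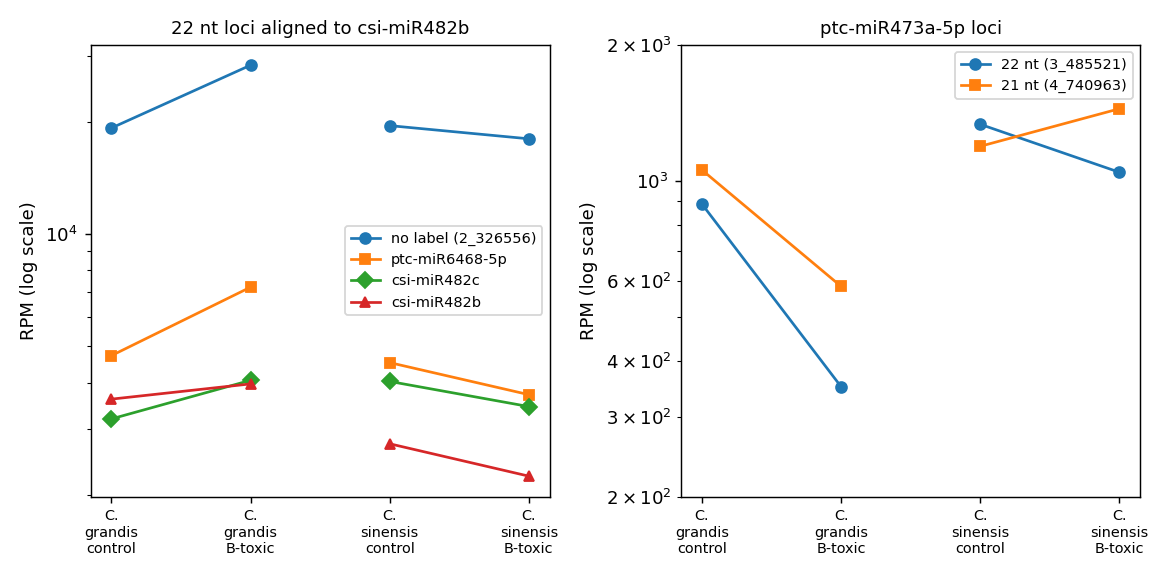
RPM of mature reads (y axes, log scale) in the 4 libraries for csi-miR482b, csi-miR482c, ptc-miR6468-5p and the unlabelled locus aligned to csi-miR482b (left) and for the 22 and 21 nt loci labelled ptc-miR473a-5p (right), with lines joining the libraries of a species and 1 library per condition. On the left each line runs up in *C. grandis* and down in *C. sinensis*, and on the right both lines run down in *C. grandis* while those in *C. sinensis* cross.

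Among the other 22 nt loci, ptc-miR473a-5p was the only one of all 42 to be called for a B effect. It had 332, 114, 462 and 254 reads (888, 350.3, 1333 and 1044 RPM). The B-toxic *C. grandis* library was the lowest of the 4. The log2 ratio in *C. grandis* was -1.34 (-1.66 to -1.03), a fall to 0.394 of the control level (FDR 2.78e-18 by Fisher's exact test, adjusted over 638 loci, of which 7.05% were called). It was no longer called when a coefficient of variation of 0.2 between libraries was assumed (FDR 0.110 by edgeR's exact test). In *C. sinensis* the log2 ratio was -0.35 (-0.58 to -0.13, FDR 0.0179), which was not called, and the ratios of the species differed (FDR 3.64e-06 by the exact conditional test).

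A 21 nt locus outside the set carried the same label and shared its first 19 bases, with U20G as the first difference.
ptc-miR473a-5p (scaffold_4_740963, 21 nt): aCUCUCCCucaagggcuucgc
It had 395, 190, 413 and 351 reads, with a log2 ratio of -0.86 (-1.11 to -0.60) in *C. grandis* and 0.28 (0.067 to 0.48) in *C. sinensis*. Neither was called, and the ratios of the species differed (FDR 1.10e-10). The 22 nt form made up 45.7% (exact 95% interval 42.0 to 49.4%) of the reads of both loci in the *C. grandis* control library and 37.5% (32.0 to 43.2%) in its B-toxic library. In *C. sinensis* the shares were 52.8% (49.4 to 56.2%) and 42.0% (38.0 to 46.0%). It was thus lower in the B-toxic library of each species. The intervals overlapped in *C. grandis* and did not in *C. sinensis*, but overlap of intervals is no test of a difference. Neither the falls nor their difference between the species were tested. Both precursors had the mature sequence on the 5′ side and an opposite strand of 21 nt, with energies of -46.6 and -52.3 kcal/mol.

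smo-miR1081 (scaffold_6_1063296: cGAGGCUUgaacuagugcggug) had 7, 3, 21 and 32 reads (18.7, 9.22, 60.6 and 131.5 RPM). Both *C. sinensis* libraries were above those of *C. grandis*. mtr-miR2655a, from barrel medic, had 9, 5, 9 and 8 reads. Its precursor folded with -58.7 kcal/mol, the lowest energy among the 42 loci, shared with the 3-read gma-miR4416c, and its opposite strand was 21 nt. sbi-miR437x-5p, from sorghum, had 1, 1, 8 and 2 reads. At these depths no ratio of the B treatments was called for these 3 loci.

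The 13 loci of 23 nt were rare, and none had over 102 reads in all. mtr-miR2622 (scaffold_2_333920: gUUGUGUGauugguguauucucc) had 42, 20, 16 and 24 reads (112.3, 61.5, 46.2 and 98.7 RPM). The B-toxic library was below the control in *C. grandis* and above it in *C. sinensis*. The log2 ratio was -0.87 (-1.72 to -0.07) in *C. grandis* and 1.10 (0.12 to 2.11) in *C. sinensis*, neither of which was called. The difference of the ratios had an FDR of 0.0133 by the exact conditional test, above the threshold of 0.01. It was called with each sequence counted once (FDR 0.00794) and with a minimum of 10 reads (FDR 0.00758). It was not called with the libraries scaled to clean reads (FDR 0.0612), by TMM (FDR 0.0294) or by DESeq2's size factors (FDR 0.0610). Loci of the same label outside the set did not move alike in *C. grandis*. A 21 nt sequence had log2 ratios of 1.18 (scaffold_6_1029357, called) and 0.92 (scaffold_4_676113, not called), at loci with unequal counts. The study names miR2622.2 in *C. grandis* among the exceptions where qRT-PCR and sequencing were not similar. Whether that name stands for this 21 nt sequence was not tested here. A 24 nt sequence at scaffold_7_1137471 and scaffold_5_968392 had -1.47 at both, not called. The remaining loci of the label, with 17 reads or fewer, had 0.20 or 1.20, not called.

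mtr-miR2089-3p had 24, 15, 11 and 9 reads, and ghr-miR2948-5p, listed at scaffold_4_754831, had 16, 25, 6 and 6. hvu-miR5049e, from barley, had 10, 8, 5 and 3 reads. These 3 loci had more reads in each *C. grandis* library than in the *C. sinensis* library of the same treatment, but the former pair was not called between the species (FDR 0.733 and 0.188 by edgeR, the latter 0.0469 and called without TMM), and hvu-miR5049e did not pass edgeR's filter on low counts. mtr-miR2617a had 3, 1, 4 and 6 reads, and vvi-miR3626-3p, from grapevine, had 3, 4, 2 and 3.

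mtr-miR7699-5p (scaffold_5_867558: aUUUAAUGuaacuuacaccacuc) had 13, 5, 0 and 0 reads. Against the limit of 3 reads, the control library of *C. sinensis* was at least 4.02-fold lower, and the B-toxic library at least 1.25-fold lower. It shared a run of at least 14 bases with an unlabelled 24 nt sequence outside the set, listed at scaffold_7_1231973 and scaffold_9_1538351 (uAACUUACaccacucacaugaaca). The former had 134, 56, 7 and 6 reads and the latter 127, 49, 6 and 4. Both were called lower in B-toxic *C. grandis*, with log2 ratios of -1.06 and -1.17 (FDR 2.20e-05 and 5.81e-06 by Fisher's exact test), and lower in *C. sinensis* than in *C. grandis* (log2 difference -3.08 and -3.37, FDR 0.00890 and 0.00589 by edgeR's quasi-likelihood test).

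Among the 25 nt loci, smo-miR1098 was listed at 2 loci with identical counts. At each it had 464, 626, 138 and 124 reads (1241, 1924, 398.2 and 509.7 RPM). Both *C. grandis* libraries were above both of *C. sinensis*. The log2 ratio of the B treatments was 0.63 (0.46 to 0.81) in *C. grandis* and 0.36 (-0.01 to 0.72) in *C. sinensis*, neither called, and the difference of the ratios was not called (FDR 0.496). Its last 22 bases were also listed as an unlabelled 22 nt sequence of its own (scaffold_4_722674: uGACGUGGcgcaauccugagcg), with 75, 111, 61 and 57 reads. Between the species this 22 nt sequence had a log2 difference of 0.05 (FDR 0.938), against -1.36 for the 25 nt sequence that contains it (FDR 0.0196, both by edgeR). Whether these values differ was not tested.

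aly-miR3433-5p had 391, 240, 58 and 73 reads (1046, 737.5, 167.3 and 300.1 RPM), and here too the *C. grandis* libraries were the higher ones. The log2 ratio of the B treatments was -0.50 (-0.74 to -0.27) in *C. grandis* and 0.84 (0.33 to 1.37, FDR 0.0104) in *C. sinensis*, neither called, and the ratios differed (FDR 1.98e-05 by the exact conditional test). In its predicted fold, 10 bases of the mature sequence paired within the sequence itself and 8 with bases outside it. An opposite strand was defined here only for sequences with no pair within themselves, so none is given for this locus.

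tae-miR5085, from wheat, had 17, 10, 33 and 33 reads (45.5, 30.7, 95.2 and 135.6 RPM), with both *C. sinensis* libraries above those of *C. grandis*. bdi-miR7730-3p, from *Brachypodium distachyon* (scaffold_3_528300: aACUUUCUuggaaaauugaaacuuc), had 40, 33, 1 and 0 reads. The log2 ratio of the *C. sinensis* over the *C. grandis* control library, which rests on that 1 read, was -5.21 (-10.55 to -2.65), and the B-toxic *C. sinensis* library was at least 8.22-fold lower against 3 reads. ppt-miR1067, from the moss *Physcomitrella patens*, had 8, 1, 1 and 1 reads.

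**Figure D3:**
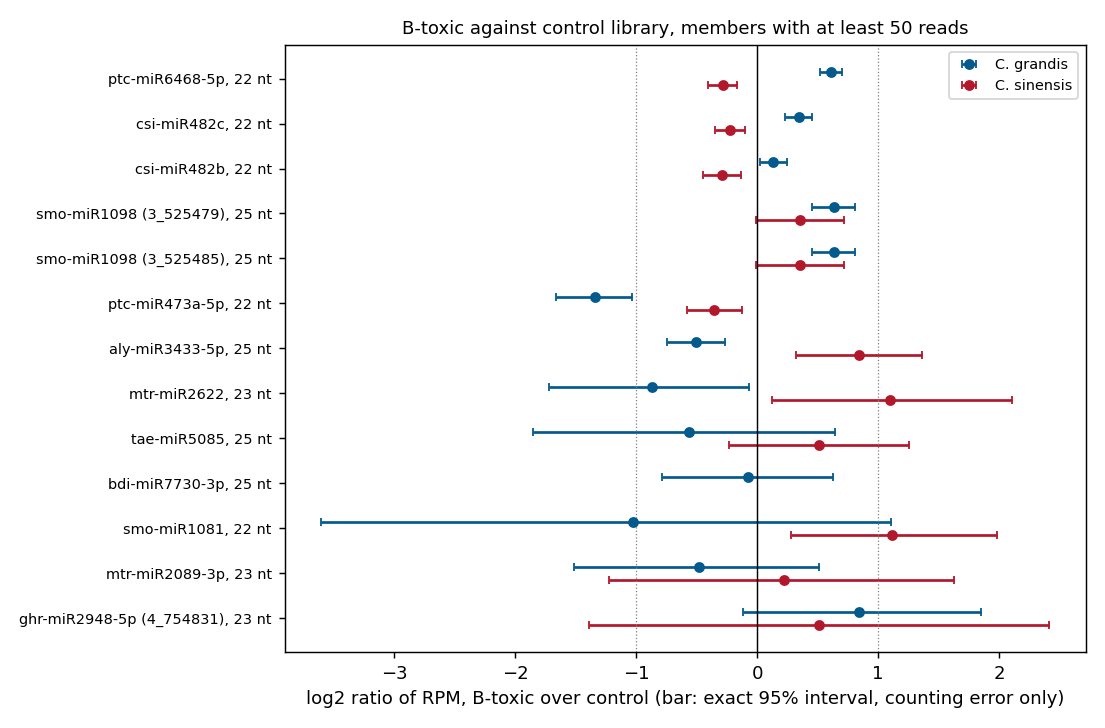
Log2 ratio of RPM in the B-toxic over the control library (x axis) of each species for the loci with at least 50 reads, with exact 95% intervals as bars, which cover counting error only, and dotted lines at the 2-fold limit. In *C. grandis* ptc-miR473a-5p (-1.34) lay past the limit with its whole interval, and the intervals of the miR482-type loci in the 2 species did not overlap.

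For the B treatment as a whole, 1 of the 32 loci with a read in *C. grandis* was called, where 7.05% of all 638 loci tested were, 3.76% as higher under B toxicity and 3.29% as lower. Of the 33 with a read in *C. sinensis*, 0 were called by Fisher's exact test, where 1.88% of 640 were, 1.41% as higher and 0.469% as lower. With no limit on the ratio, 6 of the 32 were past the FDR in *C. grandis*, 4 higher (counting smo-miR1098 at both loci) and 2 lower. Over the whole table, 112 of 638 loci were. In *C. sinensis* 3 of the 33 were past it, all lower, where 57 of 640 loci of the whole table were. The 3 in *C. sinensis* were csi-miR482b, csi-miR482c and ptc-miR6468-5p. Among loci with at least 10 reads in the pair of libraries, the median log2 ratio was -0.30 over 16 loci of the set and -0.11 over all 431 in *C. grandis*, and 0.36 over 15 and 0.25 over all 372 in *C. sinensis*. The ratios of the 2 species differed at 5 of 23 loci tested, where 13.3% of 579 loci did. These were 4 loci of 22 nt and 1 of 25 nt, with none of 23 nt. At 23 nt, mtr-miR2622 was called as a sixth locus under the 2 settings given above, and not under the other scalings. The 5 loci were all among the 7 most abundant of the set, while no 23 nt locus had over 102 reads. Of the 4 at 22 nt, 3 were the miR482-type loci. The split by length thus goes with read depth, and whether length mattered at equal depth was not tested. At ptc-miR6468-5p, csi-miR482b and csi-miR482c the ratio was higher in *C. grandis*, the direction called at 5.35% of all loci, and at ptc-miR473a-5p and aly-miR3433-5p it was higher in *C. sinensis*.

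The species were compared with edgeR's quasi-likelihood test, in which the 2 libraries of a species, which differ in B treatment, stood in for replicates with 1 residual degree of freedom. Of the 42 loci, 13 passed the filter on low counts, and 7 of these were called at an FDR below 0.05, where 31.5% of 349 loci were, 15.8% in each direction. Loci with few reads in 1 species, such as bdi-miR7730-3p and smo-miR1081, could pass the filter through the species where they were high, so the share called is partly set by the filter. With no filter, 8 of the 42 loci were called, the 7 among them. No share over all loci is given for that setting, so this count is not compared with a background. Higher in *C. grandis* were both loci of smo-miR1098, aly-miR3433-5p with a log2 difference of -1.55 (FDR 0.0316) and bdi-miR7730-3p with -5.29 (FDR 0.00338). Higher in *C. sinensis* were smo-miR1081 with 3.04 (FDR 0.0117), tae-miR5085 with 1.98 (FDR 0.0252) and ptc-miR473a-5p with 1.49 (FDR 0.0206). csi-miR482b (-0.19), csi-miR482c (0.47) and ptc-miR6468-5p (-0.09) were not called, with an FDR of 0.745, 0.440 and 0.901. Without the control library of *C. sinensis*, 3 of the 7 calls were left, and smo-miR1098, ptc-miR473a-5p and aly-miR3433-5p were not among them. smo-miR1098 was also not called without the B-toxic *C. sinensis* library (FDR 0.0745), ptc-miR473a-5p without the B-toxic *C. grandis* library (FDR 0.271) and aly-miR3433-5p without the control *C. grandis* library (FDR 0.0639).

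**Figure D4:**
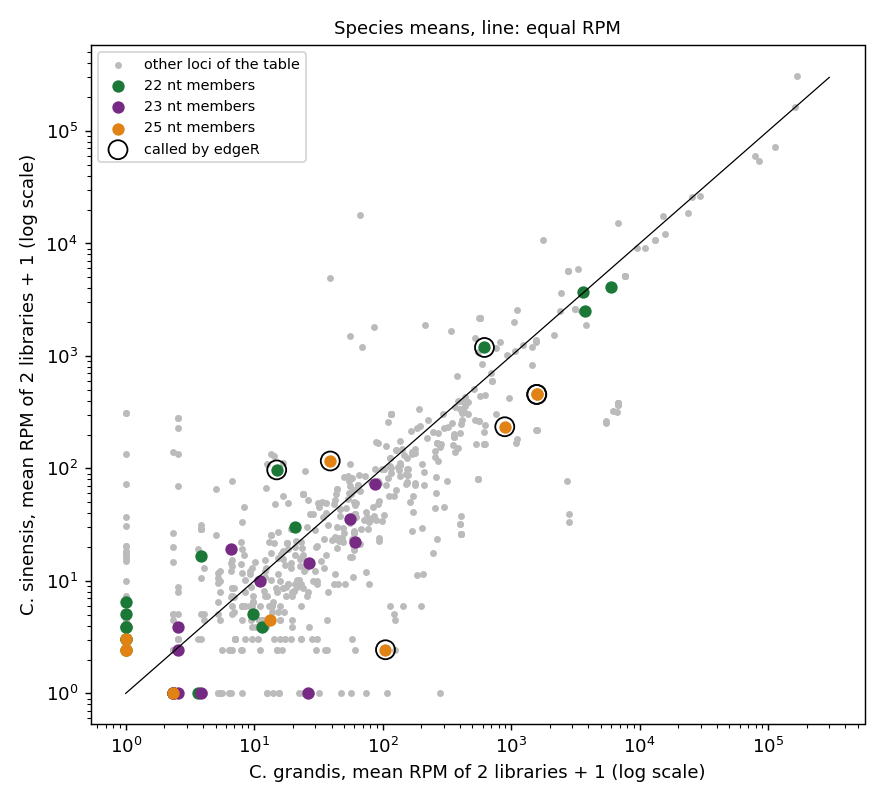
Mean RPM plus 1 over the 2 libraries of *C. grandis* (x axis) and of *C. sinensis* (y axis), both on log scales, for the loci of 22, 23 and 25 nt in the set and for the other loci of the table in grey, with the line of equal RPM. Rings mark the 7 loci called by edgeR, of which the 2 loci of smo-miR1098 coincide: 4 lie below the line, higher in *C. grandis*, and 3 above it.

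The remaining 22 loci had fewer than 10 reads each, 47 in all, and allowed no comparison. They were the second ghr-miR2948-5p locus with 9 reads and tae-miR1136 with 8. A further 8 loci had 2 or 3 reads: gma-miR4416c, cre-miR1150.1, mtr-miR5259, ptc-miR6456, osa-miR1874-3p, ghr-miR7494, osa-miR6253 and ath-miR774a. Another 12 had 1 read each: bdi-miR5185a-3p, hvu-miR6205, ppt-miR893 at 2 loci, osa-miR1850.3, ath-miR3932a, sbi-miR6234a-5p, osa-miR5157a-3p, ptc-miR169b-3p, bdi-miR7729a-5p and osa-miR5524 at 2 loci. The 2 loci of ppt-miR893 had the same sequence and count, as had those of osa-miR5524. The mature sequence labelled ptc-miR169b-3p lay on the 5′ side of its precursor.

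**Figure D5:**
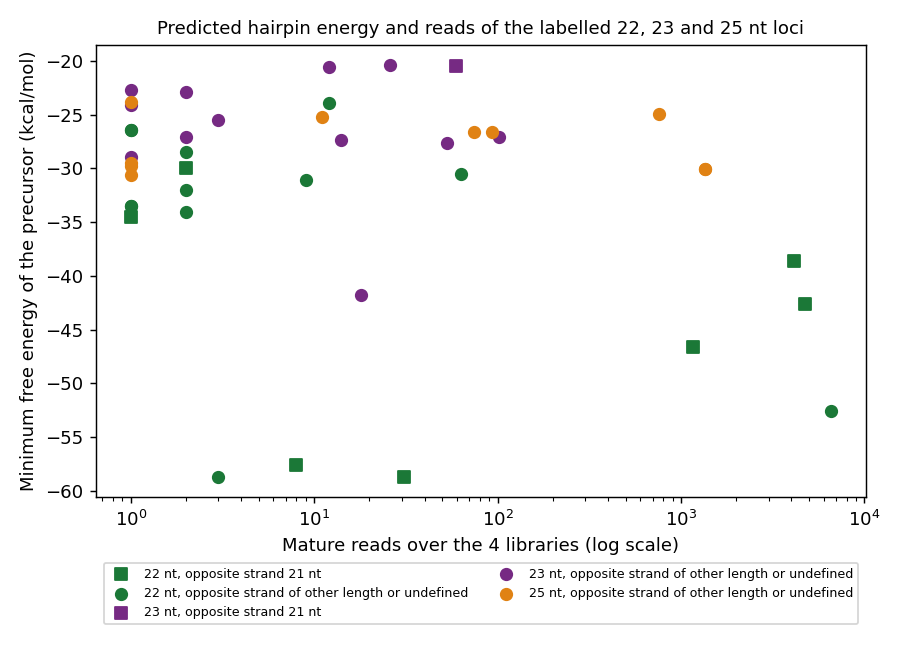
Minimum free energy of the predicted precursor hairpin (y axis, kcal/mol) against mature reads over the 4 libraries (x axis, log scale) for the 42 loci, coloured by length, with squares where the opposite strand of the duplex was 21 nt. The 4 loci of 22 nt with over 1000 reads had energies from -52.6 to -38.6, while the 25 nt loci lay between -30.6 and -23.8 whatever their reads.

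The fold of the precursor and the first base did not enter the choice of the loci. The precursor energy had a median of -33.5 kcal/mol at the 22 nt loci, -25.5 at the 23 nt loci and -28.1 at the 25 nt loci. An opposite strand of 21 nt was predicted at 7 of 19 loci of 22 nt, 1 of 13 of 23 nt and 0 of 10 of 25 nt, a length that is tied to that of the mature sequence and so to the choice of the loci. Over the whole set the share was 19.05%, and over all 699 loci it was 23.03%. A first base of U, which in *Arabidopsis* favours loading into AGO1, was found at 26 of the 42 loci with 92.3% of their reads, against 41.2% of all 699 loci with 66.9% of the reads. The 35 other loci of 22, 23 or 25 nt lay between, with U at 51.4% of loci and 78.5% of reads. Within the set, the share by locus was 63.2% at 22 nt, 61.5% at 23 nt and 60.0% at 25 nt. By reads it was 92.6%, 39.8% and 95.1%, shares carried by few loci, since 5 loci held 87.7% of all reads of the set. Reads elsewhere on the precursor made up 2.95% of the reads of the 42 precursors and 2.62% over all loci. The share was 12.1% at ptc-miR473a-5p and 4.79% at csi-miR482b, but 0.978% at ptc-miR6468-5p and 0.524% at csi-miR482c. Of 16 labels that name an arm, 9 were on that side of the precursor and 7 on the other, as were 90 and 67 of 157 over the whole table.

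Loci labelled as known triggers of secondary siRNAs in plants were taken as a wider group, of which csi-miR482b and csi-miR482c are the only ones in the set. Of 16 such loci, 15 had reads in each species and 0 were called for a B effect in either by Fisher's exact test, against 7.05% of all loci in *C. grandis* and 1.88% in *C. sinensis*. Their median log2 ratio was -0.56 over 12 loci in *C. grandis*, against -0.11 over all loci, and 0.17 over 13 in *C. sinensis*, against 0.25. Between the species 2 of 13 were called, both higher in *C. sinensis*, a direction called at 15.8% of all loci. The 35 other loci of 22, 23 or 25 nt, which are unlabelled or of the excluded families, held 155478 reads. Of 28 tested in *C. grandis*, 2 were called higher and 1 lower under B toxicity, against 3.76% and 3.29% of all loci. Of 35 tested in *C. sinensis*, 4 were called higher, against 1.41% of all loci. The 35 loci hold 28 distinct sequences, and all 699 loci hold 579, so a sequence listed at several loci can be called more than once.

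The loci with the most similar pattern over the 4 libraries were sought for each sequence of the set with at least 1000 reads, by the Euclidean distance of centred log2(RPM + 1) among the 230 loci with at least 100 reads. The nearest to ptc-miR6468-5p was a 21 nt locus labelled zma-miR395m-5p (distance 0.13), followed by the unlabelled locus aligned to csi-miR482b (0.23). The nearest to csi-miR482c was an unlabelled 21 nt sequence at 2 loci (0.14), and to csi-miR482b a locus labelled ath-miR165a (0.25). The nearest to ptc-miR473a-5p was a 21 nt locus labelled ath-miR858b (0.27), with 1893, 501, 2279 and 1276 reads. smo-miR1098 had an unlabelled 24 nt locus as the nearest other sequence (0.38). These distances describe 4 libraries and carry no test.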

How the data were processed

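The authors deposited raw counts of reads per locus and library for each mature sequence, and 1 pooled count per precursor. Per the methods of the study, RNA of replicates was mixed, reads of other RNA types were dropped, miRBase was searched, and MTide placed sequences on the genome of *C. clementina* to find hairpins. How reads with several matching loci were assigned is not stated in the sources used here, and the sequences of the set that are listed at 2 loci held identical counts at both. No genome was used here, so loci are given by their identifiers.

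RPM were computed from the deposited counts with the library's total of mature reads. Within a species, Fisher's exact test (two-sided, scipy 1.17.1) compared each locus with all other mature reads. Benjamini-Hochberg adjustment ran over all loci with at least 1 read, and calls were made at FDR < 0.01 with a 2-fold change or more. Ratios against 0 reads are bounds against 3 reads. Whether both species had the same ratio was put to an exact conditional test (Fisher's noncentral hypergeometric distribution, FDR < 0.01). Species were compared with edgeR 4.0.16 (quasi-likelihood, B treatment and species as terms, filterByExpr, library sizes recomputed after the filter, then TMM) at an FDR below 0.05. In all, 3 orders of these last steps were run, and the order reported was chosen after their counts of calls over all loci had been seen, because it gave the count of an earlier account of these data. The other orders are given as alternatives. Alternatives also included DESeq2 1.42.0. Hairpins were folded with RNAfold 2.7.2. Intervals are exact 95% intervals and cover counting error only, since PCR copies are not told apart.

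Every locus with at least 10 reads was named with its counts, and rarer ones by label. The loci and lists were chosen with earlier results of these data known. The tests were checked on simulated counts. With no locus changed, the 2 tests between libraries made no call. These draws held counting error only (Poisson counts), so they cannot show how many calls spread between plants or library preparations would make. When many abundant loci were changed in 1 library, both tests also called unchanged loci, because the changed loci moved the library total, and nearly all of these calls were gone when the true library size was used. Calls of both tests are therefore relative to the total of mature reads.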

Additional observations from a re-analysis of the deposited data

Results flagged for a closer look

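The ratio of the B-toxic to the control library differed between the species at 5 loci by the exact conditional test, adjusted over 579 loci. It was higher in *C. grandis* at ptc-miR6468-5p (FDR 2.60e-31), csi-miR482c (FDR 5.03e-10) and csi-miR482b (FDR 0.000111). It was higher in *C. sinensis* at ptc-miR473a-5p (FDR 3.64e-06) and aly-miR3433-5p (FDR 1.98e-05). All 5 were called under the 3 other scalings, with each sequence counted once and with a minimum of 10 reads. Each ratio comes from 1 library per condition, so the spread between plants and library preparations is not covered by these values.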

How the results depend on the processing

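With 1 library per condition, differences between the B treatments cannot be told apart from differences between library preparations, and the species test had 1 residual degree of freedom. No paired analysis was possible because each condition has 1 library and the labels give no replicate numbers.

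In *C. grandis* the 1 call became 6 (4 higher and 2 lower) with no limit on the ratio and 0 with an assumed coefficient of variation of 0.2. In *C. sinensis* 0 became 3 with no limit on the ratio. Over all loci these settings gave 112 and 10 calls in place of 45 in *C. grandis* and 57 and 6 in place of 12 in *C. sinensis*. The split of 24 higher and 21 lower in *C. grandis* became 34 and 7 with clean reads and 26 and 11 with DESeq2's size factors. That of 9 and 3 in *C. sinensis* became 8 and 5 (TMM) or 7 and 5 (DESeq2's size factors). For the difference of the ratios, 31 of 77 calls had the higher ratio in *C. grandis*, against 34 of 55 with clean reads or DESeq2's size factors and 32 of 62 with TMM. Between the species, 55 and 55 calls over all loci became 45 and 84 without TMM, and the 7 calls in the set ranged from 3 (without the control library of *C. sinensis*) to 6 with 1 library left out. The edgeR orders not used as main gave 122 calls over all loci (library totals kept after the filter) and 124 (TMM before the filter), in place of 110, and 7 calls in the set each.

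Of 512 values of named loci under the alternatives, 479 kept their direction and call, 11 lost a call, 11 gained one and 11 turned in direction. None of those that turned was called. In *C. grandis* the log2 ratio of bdi-miR7730-3p was 0.18 with clean reads and 0.069 with DESeq2's size factors, and that of hvu-miR5049e 0.13 and 0.025. With 1 library left out, the species difference ranged from -0.35 (without control *C. sinensis*) to 0.20 (without B-toxic *C. sinensis*; also 0.20 without B-toxic *C. grandis*) for ptc-miR6468-5p, from -0.43 to 0.13 for csi-miR482b, from -0.32 to 0.65 for mtr-miR2622 and from -0.52 to 0.048 for mtr-miR2089-3p. That of mtr-miR2622 was -0.31 without TMM. The cause was not tested. Species calls of smo-miR1098 were lost without either *C. sinensis* library, of ptc-miR473a-5p without TMM (FDR 0.0521), B-toxic *C. grandis* or control *C. sinensis*, of aly-miR3433-5p without either control library and of tae-miR5085 with DESeq2 (FDR 0.107). That of ghr-miR2948-5p was gained without TMM (FDR 0.0469). For the difference of the ratios, mtr-miR2622 was gained with each sequence counted once (FDR 0.00794) or at least 10 reads (FDR 0.00758), which made 6 calls in place of 5. It was not called with clean reads, TMM or DESeq2's size factors.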
